A study of Mus musculus with 15 samples.

Results

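The renin-angiotensin system genes Agt, Ren1, Ace, Agtr1a, Agtr1b, Agtr2 and Atp6ap2 were followed across RNA sequencing libraries of the mouse aorta-gonad-mesonephros (AGM) region, the embryonic tissue around the dorsal aorta in which hematopoietic stem cells emerge. The table listed 28876 genes, and each of the 7 names matched 1 row. The genes were selected on measured values, because Agtr2 had the largest rise between stages in dorsal tissue, so the stage comparison in the dorsal domain, and every comparison of Agtr2 that used dorsal libraries, is given as a description with no test. Tests of whether the stage difference of another member differed between the domains also use that dorsal comparison, so they are not free of this choice. Wild-type C57BL/6 embryos at E9.5 were dissected into dorsal (E9 AoD) and ventral (E9 AoV) tissue around the aorta, and embryos at E10.5 into dorsal tissue (E10 AoD), ventral tissue (E10 AoV) and the urogenital ridges (E10 UGR), with no treatment or transgene. Each of the 5 groups had 3 libraries, each made from tissue pooled over many embryos in a separate experiment, so the p-values measure the spread between these pools. Whole dissected tissue was sequenced, so a change in the number of cells of a type and a change in RNA per cell cannot be told apart.

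In the renin-angiotensin system the protease renin, encoded by Ren1, cuts angiotensinogen, the secreted product of Agt, and angiotensin converting enzyme, encoded by Ace and held on the surface of endothelial and other cells, then releases angiotensin II. Angiotensin II acts on 2 kinds of receptor. The type 1 receptor, which in mice is made from Agtr1a and Agtr1b, signals through Gq and drives vasoconstriction and aldosterone release, while the type 2 receptor, made from Agtr2, is known for high expression in fetal tissues that is lost after birth. Atp6ap2 encodes a protein that binds prorenin and is also an accessory subunit of the vacuolar proton pump.

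All 7 genes are protein coding and their positions are given on the NCBIM37 (mm9) mouse build. Agtr2 (ENSMUSG00000068122) lies on the plus strand of chromosome X from 21061670 to 21066290, and Atp6ap2 (ENSMUSG00000031007) on the plus strand of the same chromosome from 12164927 to 12194175. Agtr1a (ENSMUSG00000049115) lies on chromosome 13, plus strand, from 30428310 to 30474736, and Agtr1b (ENSMUSG00000054988) on chromosome 3, minus strand, from 20213395 to 20266099. Ren1 (ENSMUSG00000070645) spans 135247087 to 135256902 on the plus strand of chromosome 1. Agt (ENSMUSG00000031980) spans 127080434 to 127093606 on the minus strand of chromosome 8. Ace (ENSMUSG00000020681) spans 105829259 to 105851278 on the plus strand of chromosome 11.

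The coding sequences of Agtr1a and Agtr1b are shown because reads from these paralogs can be exchanged. Both are 1080 bases long and 90.8% of the bases are identical, with a longest identical run of 66 bases, which is longer than a 50-base read. The run is printed with 30 bases on each side (coding bases 45 to 170, counted from the start codon), with the 6 differing bases in capitals.
Agtr1a: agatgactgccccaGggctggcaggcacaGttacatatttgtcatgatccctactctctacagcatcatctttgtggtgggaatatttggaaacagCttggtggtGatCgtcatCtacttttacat
Agtr1b: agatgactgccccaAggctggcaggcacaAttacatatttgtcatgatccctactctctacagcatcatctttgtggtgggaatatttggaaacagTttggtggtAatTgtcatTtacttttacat
Of all 50-base windows in annotated transcripts, 33 (1.53% of those of Agtr1a and 1.54% of those of Agtr1b) occurred in both genes. No window of the other 5 members occurred in a coding transcript of another gene. The study divided reads that matched several loci in proportion to unique reads, so a value of either paralog need not be a whole number of reads.

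The upstream sequences of Agtr2 and Ren1 are shown because Agtr2 is the member on which the genes were chosen and Ren1, at a few reads per library, was seen mainly in ventral tissue. RefSeq gave a start site for 6 of the 7 members (GRCm38.p6), all but Agtr1a, and the 250 bases before it are printed 5′ to 3′ on the gene's strand. Capitals mark matches on either strand to the TATA box TATAAA, to a longer form of the TATA box spelled TATATAA and to the Hox-Pbx core motif spelled AATAAATC, and no marked match overlaps another. The Agtr2 sequence is chrX:21484374-21484623 and the Ren1 sequence is chr1:133350424-133350673, both on the plus strand.
Agtr2: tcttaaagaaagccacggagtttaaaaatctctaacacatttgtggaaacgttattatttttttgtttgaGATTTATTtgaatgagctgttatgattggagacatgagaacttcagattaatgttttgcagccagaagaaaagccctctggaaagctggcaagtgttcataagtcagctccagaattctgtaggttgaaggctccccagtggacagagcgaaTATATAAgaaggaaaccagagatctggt
Ren1: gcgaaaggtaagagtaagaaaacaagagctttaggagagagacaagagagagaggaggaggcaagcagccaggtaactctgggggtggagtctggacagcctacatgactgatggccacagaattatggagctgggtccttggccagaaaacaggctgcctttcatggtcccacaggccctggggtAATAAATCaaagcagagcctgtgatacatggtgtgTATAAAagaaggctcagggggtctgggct
In Agtr2 the longer TATA box began 28 bases before the start site and the core motif, on the opposite strand, 180 bases before it. In Ren1 the TATA box began 29 bases and the core motif 64 bases before the start. Of 32851 mouse upstream windows of this length, 12.4% held the TATA box, 3.04% its longer form and 1.07% the core motif. The TATA box also occurred in the windows of Agt and Agtr1b on the gene's strand, and on the opposite strand at 1 of 2 start sites of Ace. The Nr5a1 motif AAGGTCA was found in 4.08% of windows and in none of the 6 members with a start site. A GATA motif (AGATAA) was found in 9.99% of windows and in none of these 6 members.

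Levels are in RPM, the reads of a gene scaled to a common total of all reads assigned to genes. By the RPM worth of 1 read, each library held about 33800000 to 48500000 reads. Libraries of the same group correlated at r of 0.993 to 0.997 across genes. A gene was tested if it reached 0.5 RPM in at least 1 library, which 18553 genes and 4 members did (Agtr1a, Agtr2, Ace and Atp6ap2). Agt, Agtr1b and Ren1 stayed below 0.5 RPM in all 15 libraries. A gene was called where limma gave a Benjamini-Hochberg adjusted p below 0.05 over all tested genes and a change of at least 2-fold on log2(RPM + 0.1). Of the labelled tissues, the endothelial markers summed to 364 to 822 RPM in every library, and markers of the mesonephros and nephric duct to 470 to 473 RPM in E10 UGR against 75.6 to 141 RPM elsewhere. The E9 AoV libraries also held hepatic endoderm markers (15 genes, 659 to 1062 RPM against 9.75 to 47.6 RPM elsewhere), and all 5 groups held erythroid markers at 2991 RPM or more.

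**Figure D1:**
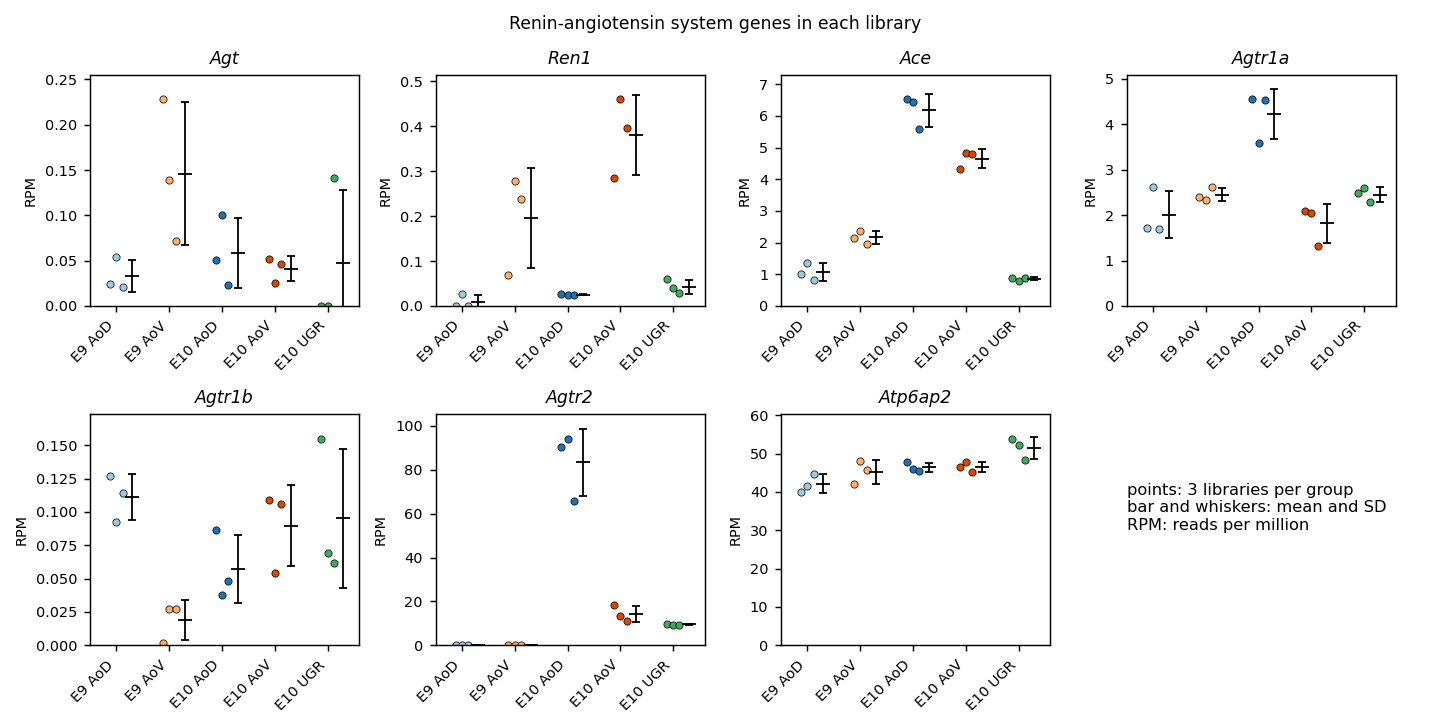
RPM of each member (vertical axis, linear from 0) in the 3 libraries of each group (points), with the group mean and SD beside them. Agtr2 rises from at most 0.342 RPM in every E9.5 library to at least 9.24 RPM in every E10.5 library, Ace is highest in the E10.5 aortic domains, and Agt, Agtr1b and Ren1 stay below 0.5 RPM.

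Agtr2 was nearly silent at E9.5 and present in all E10.5 tissue, with its peak in dorsal tissue. The 3 E9 AoD libraries read 0.295, 0.296 and 0.214 RPM and the 3 E10 AoD libraries 90.3, 94.2 and 65.9 RPM. In ventral tissue the E9 AoV values were 0.342, 0.162 and 0.143 RPM and the E10 AoV values 18.3, 13.2 and 11.2 RPM. The urogenital ridges read 9.92, 9.42 and 9.24 RPM. No E9.5 library overlapped any E10.5 library, every E10 AoD library lay above every other library, and the ranges of E9 AoD and E9 AoV overlapped. At E9.5 the gene rested on 6 to 15 reads per library, and in E10 AoD on at least 2781 reads.

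The dorsal rise, on which the genes were chosen, was a log2 difference of 7.82 (225-fold) between mean values of 0.268 ± 0.0471 RPM and 83.5 ± 15.3 RPM (SD, n = 3 each). The ventral libraries, which that choice did not use, gave a rise of 5.53 on the log2 scale (SE 0.22, 95% interval 5.06 to 6.00, limma adjusted p = 2.01e-10), from 0.216 ± 0.110 RPM to 14.2 ± 3.66 RPM (SD, n = 3 each). These fold changes understate the ratio because the 0.1 RPM added before the logarithm is of the size of the E9.5 values. In E10 AoD the mean level of Agtr2 exceeded that of 83.8% of tested genes, in E10 AoV that of 47.8% and in E9 AoV that of 2.98%. E10 AoV and E10 UGR, neighbours in the order of levels, did not pass the test (log2 difference 0.54, SE 0.22, 95% interval 0.07 to 1.01, limma adjusted p = 0.0777), although every E10 AoV library lay above every E10 UGR library. This adjusted p depended on the setting. It was 0.0191 with 1 RPM added, 0.0470 under quantile normalization, 0.0142 with a replicate block, 0.0139 with that block within each stage and 0.0455 without E10 AoV replicate 3, and 0.125 to 0.310 without each of the other 5 libraries and 0.140 with no filter, and the difference stayed below 2-fold in all of these. As a description, E10 AoD lay 2.56 above E10 AoV and 3.10 above E10 UGR on the log2 scale.

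Per kilobase of exon the order of the receptors changed with stage in both aortic domains. In E9 AoD Agtr1a stood at 0.816 ± 0.213 RPM per kb and Agtr2 at 0.0807 ± 0.0141 RPM per kb. In E9 AoV Agtr1a stood at 0.994 ± 0.0568 RPM per kb and Agtr2 at 0.0648 ± 0.0330 RPM per kb, and in E10 AoV Agtr1a stood at 0.736 ± 0.178 and Agtr2 at 4.28 ± 1.10 RPM per kb (SD, n = 3 libraries each). In E10 AoD Agtr2 reached 25.1 ± 4.61 RPM per kb beside 1.71 ± 0.226 RPM per kb of Agtr1a. In E10 UGR the levels were 2.86 ± 0.106 RPM per kb for Agtr2 and 0.994 ± 0.0655 RPM per kb for Agtr1a. Agtr1b did not exceed 0.0518 RPM per kb in the mean of any group. These are levels side by side, without a test between genes.

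**Figure D2:**
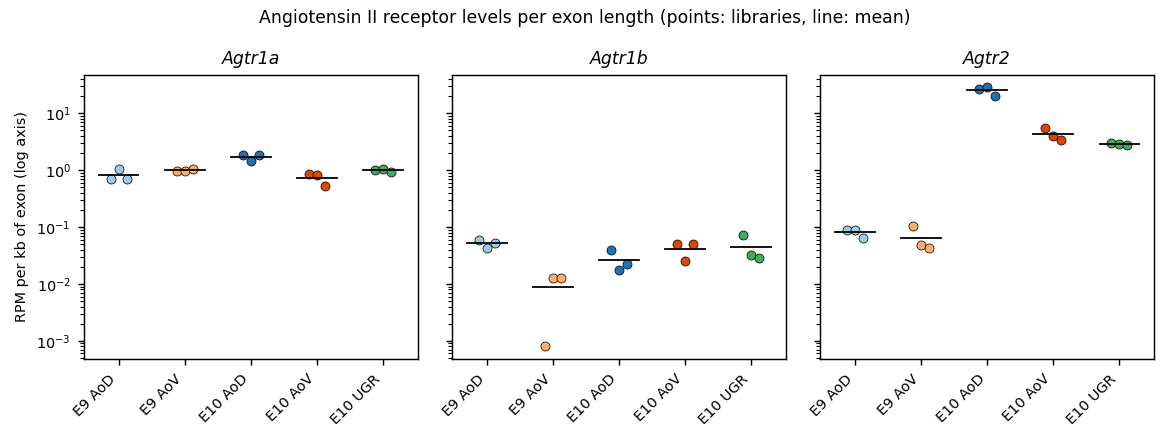
RPM per kilobase of exon (log axis) of the angiotensin II receptor genes in each library (points) with the mean of the 3 libraries (line). Agtr1a stays between 0.736 and 1.71 RPM per kb in the group means, while Agtr2 spans 0.0648 (E9 AoV) to 25.1 (E10 AoD) RPM per kb.

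The gene closest to Agtr2 in pattern over the 15 libraries was Dbh, dopamine beta-hydroxylase, which makes noradrenaline in sympathetic neurons and adrenal chromaffin cells (r = 0.997 on log2 values). Its group means at E9.5 were 0.647 RPM (AoD) and 0.387 RPM (AoV), and at E10.5 they were 98.8 RPM (AoD), 16.7 RPM (AoV) and 11.4 RPM (UGR). Rgs4 (r = 0.988), a regulator of G protein signaling, Igh-6 (r = 0.985), an immunoglobulin heavy chain gene, Ly86 (r = 0.980) and Islr (r = 0.980) followed. These correlations run over 5 groups of 3 pooled libraries and are descriptive. The 8 sympathoadrenal markers, of which Dbh is one, moved with Agtr2. Their summed level at E9.5 was 42.4 to 48.5 RPM (AoD) and 91.0 to 104 RPM (AoV), and at E10.5 it was 322 to 399 RPM (AoD), 133 to 154 RPM (AoV) and 68.7 to 73.2 RPM (UGR). Of these 8 markers E10 AoV exceeded E9 AoV in 7 and lay below E10 AoD in 7, by the call rule, and Hand2 alone was called against E10 UGR (higher). Of all genes 6.04% were called above E9 AoV, 4.29% below E10 AoD and 3.84% above E10 UGR. The summed level of these markers was higher in E9 AoV than in E10 UGR, while Agtr2 was lower there, and the sum in E9 AoV came mostly from Hand2 (83.9 ± 5.53 RPM, SD, n = 3). Foxd1, a stromal progenitor marker, was also highest in E10 AoD (292 RPM). The 8 sclerotome markers summed to 486 to 552 RPM (AoD) and 100 to 125 RPM (AoV) at E9.5. At E10.5 they summed to 720 to 897 RPM (AoD), 189 to 195 RPM (AoV) and 207 to 234 RPM (UGR). Unlike Agtr2, Foxd1 and the sclerotome sum were higher in E9 AoD than in E10 AoV. The 9 macrophage markers in the table also had low sums at E9.5, with 5.67 to 10.2 RPM (AoD) and 11.7 to 14.2 RPM (AoV), and higher ones at E10.5, with 76.0 to 88.5 RPM (AoD), 59.8 to 70.7 RPM (AoV) and 46.5 to 53.7 RPM (UGR), the same order of groups at E10.5 as for Agtr2. Of these 9 markers 8 rose between the ventral stages, where 6.04% of all genes rose. In E10 AoV against E10 AoD limma called 0 (4 at an unadjusted p below 0.05), and 0 in E10 AoV against E10 UGR (2). Of all genes 10.1% and 7.57% were called there, so 0 of 9 is near the share of all genes. The part of these cell types in the level of Agtr2 was not tested.

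**Figure D3:**
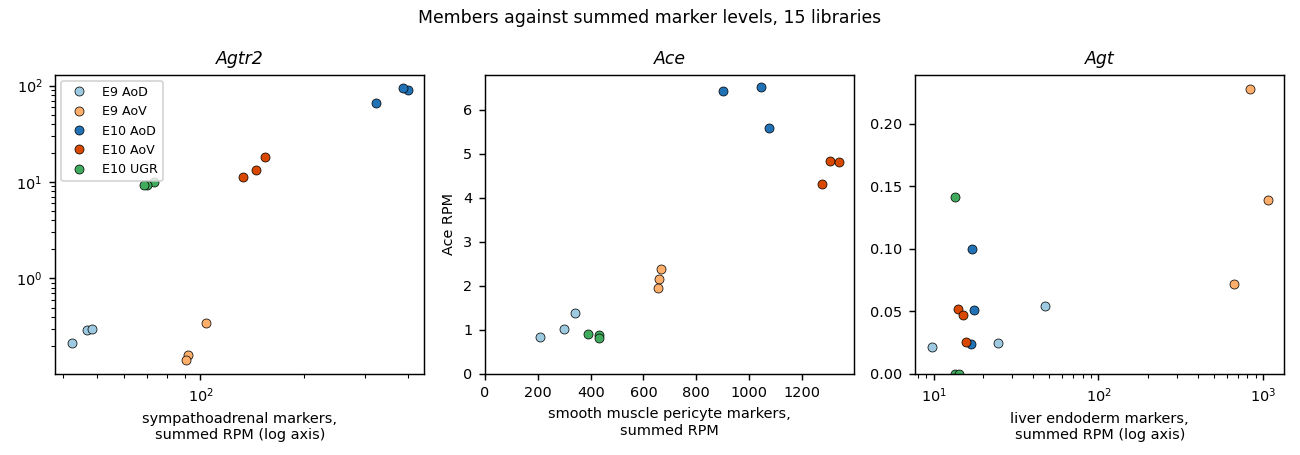
A member's RPM (vertical axis) against the summed RPM of a marker list (horizontal axis) in each of the 15 libraries, colored by group, for Agtr2 and sympathoadrenal markers (both log axes), Ace and smooth muscle and pericyte markers (linear axes) and Agt and hepatic endoderm markers (log horizontal axis). The E10 AoD libraries lie at the top right for Agtr2, the E10.5 aortic libraries at the top right for Ace, and the 3 E9 AoV libraries far to the right for Agt.

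Agtr1a, the main type 1 receptor gene of the mouse, was low in every group and highest in E10 AoD. The E9 AoD libraries read 1.72, 2.62 and 1.70 RPM and the E9 AoV libraries 2.41, 2.34 and 2.61 RPM. At E10.5 the AoD libraries read 4.55, 3.58 and 4.54 RPM, the AoV libraries 2.10, 2.04 and 1.31 RPM and the UGR libraries 2.48, 2.60 and 2.28 RPM. Every E10 AoD library exceeded the 12 others, whereas the remaining groups overlapped in part. E10 AoV was lower than E10 AoD by 1.19 on the log2 scale (SE 0.18, limma adjusted p = 1.16e-04). This call misses the 2-fold mark without E10 AoV replicate 3 (log2 difference -0.99, adjusted p = 5.61e-04) and with 1 RPM added before the logarithm (-0.90). E10 AoD exceeded E10 UGR by 0.75 (SE 0.18, adjusted p = 0.00434), which is less than 2-fold. The values in E10 AoV against E9 AoV (-0.44, 95% interval -0.84 to -0.05, adjusted p = 0.0648), in E10 AoV against E10 UGR (-0.44, interval -0.84 to -0.05, adjusted p = 0.0897) and in E9 AoV against E9 AoD (0.30, interval -0.10 to 0.69, adjusted p = 0.203) did not pass the test.

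The stage difference of Agtr1a was not the same in the dorsal and the ventral domain. It was 1.05 dorsally and -0.44 ventrally on the log2 scale, and the interaction of stage and position, the ventral stage difference minus the dorsal one, was -1.49 (SE 0.26, limma adjusted p = 5.46e-04). This interaction contains the dorsal stage comparison used for the choice of the genes. Closest in pattern were Prrx1 (r = 0.923), a transcription factor of limb and somatic mesenchyme, Dlc1 (r = 0.901) and Dnm1 (r = 0.900), over the same 15 libraries. Prrx1 had its highest group mean in E10 AoD (135 RPM) and its lowest in E10 AoV (70.0 RPM), as Agtr1a did.

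Agtr1b, the other type 1 receptor gene, was at the floor of detection. At E9.5 its values were 0.127, 0.0927 and 0.114 RPM (AoD) and 0.00172, 0.0272 and 0.0275 RPM (AoV). At E10.5 they were 0.0864, 0.0376 and 0.0481 RPM (AoD), 0.109, 0.0544 and 0.106 RPM (AoV) and 0.155, 0.0689 and 0.0617 RPM (UGR). Only 2 of these 15 values came within 0.1 of a whole number of reads, so no counting interval is given. The 3 E9 AoV libraries were the lowest. In a fit over all 28876 genes with no filter, E9 AoV lay below E9 AoD (-0.83, SE 0.19, limma adjusted p = 0.00426, less than 2-fold) and the interaction was 1.10 (SE 0.26, adjusted p = 0.0118, called, where 2.77% of all genes were called higher). That interaction too contains the dorsal stage comparison used for the choice. Hoxa6 (r = 0.870), Macrod2 (r = 0.847) and Lin7c (r = 0.830) were closest in pattern, and with at most about 5 reads per library this likeness rests on very few reads. The number of reads exchanged with Agtr1a is unknown.

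Ace, the converting enzyme, rose with stage around the aorta and was low in the urogenital ridges. At E9.5 the dorsal libraries read 1.01, 1.37 and 0.829 RPM and the ventral libraries 2.16, 2.38 and 1.95 RPM. At E10.5 the dorsal libraries read 6.52, 6.44 and 5.58 RPM, the ventral libraries 4.31, 4.84 and 4.81 RPM and the urogenital ridges 0.887, 0.798 and 0.897 RPM. From high to low the order was E10 AoD, E10 AoV, E9 AoV, E9 AoD and E10 UGR, and only the ranges of the last 2 overlapped. In ventral tissue the rise from E9.5 to E10.5 was 1.07 on the log2 scale (SE 0.15, limma adjusted p = 3.25e-05), and with 1 RPM added it was 0.84, below the 2-fold mark. In dorsal tissue the difference was 2.45, given as a description. The interaction of stage and position, which contains that dorsal difference, was -1.37 (SE 0.21, adjusted p = 1.71e-04), and with 1 RPM added it was -0.96.

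E10 AoV exceeded E10 UGR in Ace by 2.31 (SE 0.15, limma adjusted p = 3.36e-08, 4.95-fold) and E10 AoD exceeded E10 UGR by 2.71 (SE 0.15, adjusted p = 2.50e-09, 6.53-fold). At E9.5 the ventral excess was 0.97 (SE 0.15, adjusted p = 7.26e-05), just short of 2-fold, and it passed that mark without E9 AoD replicate 2 (1.15) or without E9 AoV replicate 3 (1.04). At E10.5 E10 AoV lay 0.40 below E10 AoD (SE 0.15, adjusted p = 0.0473), and this adjusted p ranged from 0.0106 to 0.150 over the alternatives. Ltbp4 (r = 0.983), a matrix protein that binds latent TGF-beta, Esyt1 (r = 0.981) and Bmx (r = 0.980), a kinase of arterial endothelium, were closest in pattern. Bmx had group means of 0.657 RPM (AoD) and 1.28 RPM (AoV) at E9.5, and of 4.68 RPM (AoD), 4.24 RPM (AoV) and 0.296 RPM (UGR) at E10.5.

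The markers of vessel wall cells moved with Ace in part. The 10 endothelial markers summed to 364 to 488 RPM (AoD) and 720 to 764 RPM (AoV) at E9.5, and to 722 to 789 RPM (AoD), 765 to 822 RPM (AoV) and 582 to 624 RPM (UGR) at E10.5. None of the 10 was called by limma in E10 AoV against E9 AoV (5 had an unadjusted p below 0.05), in E10 AoV against E10 UGR (7) or in E10 AoD against E10 UGR (9), the pairwise tests in which Ace was called. Of all genes 11%, 7.57% and 11.3% were called in these comparisons, so 0 of 10 is near the share of all genes. For the interaction, in which Ace was also called, 1 of the 10 was called (Tek, negative), with 9 at an unadjusted p below 0.05. There 11% of all genes were called. Between the dorsal stages, as a description, 4 of the 10 exceeded the call limits, all higher, where 8.6% of all genes did so as higher. The 10 smooth muscle and pericyte markers summed to 392 to 433 RPM in E10 UGR, 900 to 1075 RPM in E10 AoD and 1277 to 1342 RPM in E10 AoV. The calls over E10 UGR were 8 of 10 for E10 AoV and 7 of 10 for E10 AoD, and 6 of 10 rose between the ventral stages. Of all genes 3.84%, 4.76% and 6.04% were called higher in these comparisons. The sum of the smooth muscle and pericyte markers was higher in E10 AoV than in E10 AoD, the reverse of the order of Ace. The part of these cell types in the level of Ace was not tested.

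Ren1, which encodes renin, was very low and was seen mainly in ventral tissue. Counted as reads, E9 AoD held 0, 1 and 0, E9 AoV 3, 12 and 10, E10 AoD 1, 1 and 1, E10 AoV 11, 18 and 17 and E10 UGR 2, 2 and 1. The E10 AoV libraries thus read 0.285, 0.460 and 0.396 RPM and the E9 AoV libraries 0.0684, 0.278 and 0.238 RPM, against 0.0237 to 0.0256 RPM (E10 AoD) and 0.0282 to 0.0593 RPM (E10 UGR). Every ventral library lay above every dorsal and urogenital ridge library. The values of all 15 libraries were within 0.1 of a whole number of reads.

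Pooled over the 3 libraries and scaled by depth, the 46 reads of E10 AoV against 3 of E10 AoD gave a ratio of 15.4 (95% exact interval 4.95 to 77.4), and against 5 of E10 UGR a ratio of 8.99 (3.58 to 29.0). At E9.5 the 25 ventral reads against 1 dorsal read gave a ratio of 24.1 (3.95 to 991). These intervals cover counting error only. Ren1 was too low for the filter, and in the fit over all 28876 genes E10 AoV exceeded E10 AoD by 1.93 (SE 0.25, limma adjusted p = 1.07e-04, where 4.25% of genes were called higher), E9 AoV exceeded E9 AoD by 1.36 (SE 0.25, adjusted p = 0.00117, with 5.98% called higher) and E10 AoV exceeded E10 UGR by 1.74 (SE 0.25, adjusted p = 3.60e-04, with 2.67% called higher). These 3 calls held without each library in turn and were below the 2-fold mark with 1 RPM added (0.43, 0.24 and 0.40). The stage difference in ventral tissue was 0.77 (SE 0.25, adjusted p = 0.0349), less than 2-fold, and the interaction was 0.57 (SE 0.36, adjusted p = 0.351).

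Tnc, tenascin C, an extracellular matrix protein, was among the genes closest to Ren1 in pattern (r = 0.955), with ventral means of 123 RPM at E9.5 and 438 RPM at E10.5 against 17.3 RPM in E10 AoD and 17.8 RPM in E9 AoD. Rps6ka2 (r = 0.961) and Slitrk4 (r = 0.957) were the other two. The other 5 markers of renin lineage cells, all tested, did not all share the ventral pattern of Ren1. By the call rule, ventral tissue at E9.5 exceeded dorsal tissue in 3 of them (Akr1b7, Crip1 and Myh11) and lay below it in 1 (Foxd1). For the aortic domains at E10.5 the ventral side was the higher in 2 (Aldh1a1 and Akr1b7) and the lower in 1 (Foxd1). Over E10 UGR the only call for E10 AoV was Myh11 (higher). Of all genes 8.32% were called higher and 3.47% lower in E9 AoV than in E9 AoD. For E10 AoV, 5.81% were called higher and 4.29% lower than E10 AoD, and 3.84% higher than E10 UGR. Akr1b7, an aldo-keto reductase of renin cells, had ventral means of 0.613 RPM at E9.5 and 0.512 RPM at E10.5 against 0.0974 to 0.239 RPM in the other groups, whereas Foxd1 was lower in ventral than in dorsal tissue at both stages (15.6 to 24.2 against 77.6 to 86.4 RPM at E9.5 and 39.5 to 45.1 against 251 to 345 RPM at E10.5).

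Agt, the source of the angiotensin peptides, was also at the floor. Its reads were 1, 2 and 1 in E9 AoD, 10, 6 and 3 in E9 AoV, 2, 4 and 1 in E10 AoD, 2, 1 and 2 in E10 AoV and 0, 0 and 5 in E10 UGR. The ratio of the 19 pooled reads of E9 AoV to the 4 of E9 AoD was 4.59 (95% exact interval 1.52 to 18.5), and that of the 5 of E10 AoV to the 19 of E9 AoV was 0.281 (0.0821 to 0.779). In the fit with no filter neither difference passed the test (0.84, limma adjusted p = 0.0714, and -0.75, adjusted p = 0.107). The E9 AoV libraries, with the most Agt reads, were those with hepatic endoderm markers, of which 14 were tested. Leaving out 3 that reached 0.5 RPM in E9 AoV alone, 11 of 11 were called above E9 AoD and above E10 AoV. Of all genes 8.32% were called above E9 AoD and 4.99% above E10 AoV. Afp, alpha-fetoprotein, had 415 ± 82.1 RPM in E9 AoV against 9.53 ± 9.59 RPM (E9 AoD) and 0.755 ± 0.256 RPM (E10 AoV, SD, n = 3 each). The part of these cells in the Agt reads was not tested. Slc35a2 (r = 0.830), Hyal2 (r = 0.817) and Ndufv3 (r = 0.794) were closest to Agt in pattern, a likeness that rests on at most 10 reads per library.

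Atp6ap2, the prorenin receptor and pump accessory gene, was the most even member. At E9.5 its values were 40.0, 41.5 and 44.8 RPM (AoD) and 42.0, 48.1 and 45.6 RPM (AoV). At E10.5 they were 47.7, 46.1 and 45.5 RPM (AoD), 46.4, 47.8 and 45.3 RPM (AoV) and 53.9, 52.2 and 48.3 RPM (UGR). Every E10 UGR library lay above every library of the other groups. No tested difference was called. Of the pairwise tests, E10 AoV against E10 AoD gave 0.002 (95% interval -0.12 to 0.13, and -0.0209 under quantile normalization), E10 AoV against E9 AoV 0.04 (-0.08 to 0.17), E9 AoV against E9 AoD 0.10 (-0.02 to 0.23), E10 AoV against E10 UGR -0.14 (-0.27 to -0.02, limma adjusted p = 0.0806) and E10 AoD against E10 UGR -0.15 (-0.27 to -0.02, adjusted p = 0.0624). With a replicate block within each stage the last 2 had an adjusted p of 0.0180 and 0.0134. Each interval lay inside the 2-fold marks.

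Atp6v1a, a catalytic subunit of the vacuolar proton pump, was among the genes closest to Atp6ap2 in pattern (r = 0.902), beside Cul4a (r = 0.907) and Zfp558 (r = 0.899). Of 24 proton pump genes 20 were tested, of which Atp6v0a4, a kidney subunit, reached 0.5 RPM in E10 UGR alone. None of the other 19 was called by limma in E10 AoV against E9 AoV or in E10 AoV against E10 AoD, where 7 and 4 had an unadjusted p below 0.05. Of all genes 11% and 10.1% were called in these comparisons. Atp6v0a4 was higher in E9 AoV than in E9 AoD (1.33, SE 0.29, limma adjusted p = 0.00148), and below 2-fold with 1 RPM added (0.32). Because it entered the fit only through E10 UGR, its level there (0.437 to 0.566 RPM) beside that in E10 AoV (0.102 to 0.241 RPM) and E10 AoD (0.0820 to 0.106 RPM) is given without a test.

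**Figure D4:**
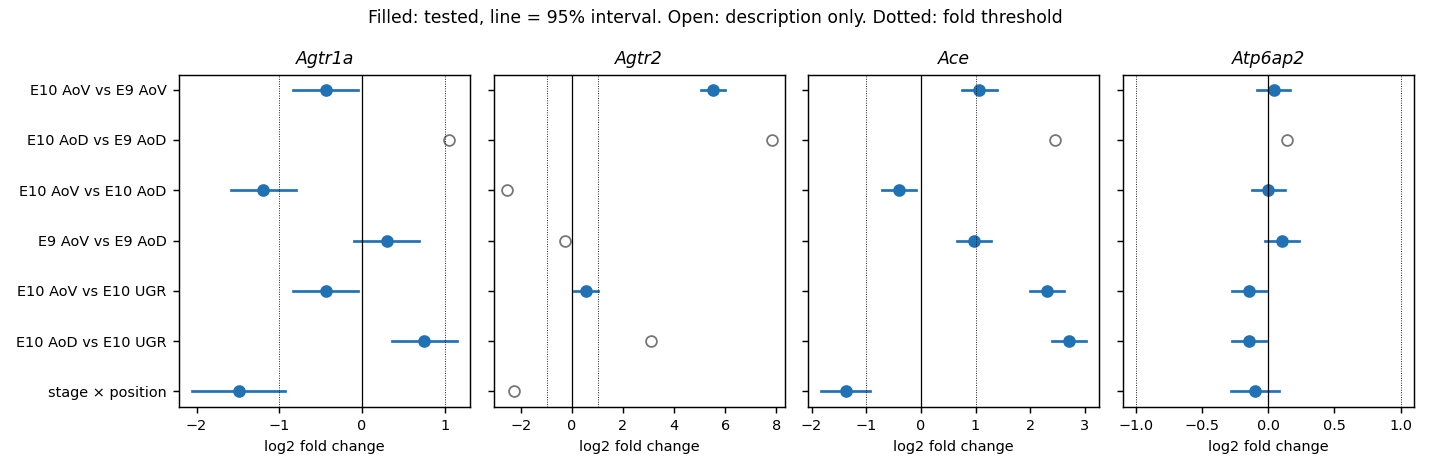
Log2 fold change (horizontal axis, different scale in each panel) of the 4 tested members in each comparison, with the 95% interval of the tests (lines). Open circles are descriptions without a test, dotted lines mark 2-fold, and every Atp6ap2 value lies inside them, while the ventral stage difference of Agtr2 (5.53) lies far outside.

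Against the background of all genes, the members counted as follows. For E10 AoV against E9 AoV 2 of 4 tested members were called (Agtr2 and Ace, both higher), where 11% of the 18553 genes were called, 6.04% higher and 4.99% lower. Agtr2 was chosen for its rise between the same stages in dorsal tissue, so this count is not free of the choice. For E10 AoD against E9 AoD, the comparison used for the choice, 3 of 4 exceeded the call limits, where 12.6% of genes did, 8.6% higher and 4% lower, and nothing is read from this count. For E10 AoV against E10 AoD 1 of the 3 members with a test was called (Agtr1a, lower), where 10.1% of genes were called, 5.81% higher and 4.29% lower.

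At E9.5 limma called 0 of 3 members between ventral and dorsal tissue, of which 1 (Ace) had an unadjusted p below 0.05, where 11.8% of genes were called, 8.32% higher and 3.47% lower. Quantile normalization moved the higher share of all calls in that comparison from 70.6% to 59.4%. In E10 AoV against E10 UGR 1 of 4 was called (Ace, higher), where 7.57% of genes were called, 3.84% higher and 3.73% lower. For E10 AoD against E10 UGR 1 of 3 was called (Ace, higher), where 11.3% of genes were called, 4.76% higher and 6.56% lower. For the interaction 2 of 3 were called (Agtr1a and Ace, both negative), where 11% of genes were called, 4.12% higher and 6.89% lower. The interaction contains the dorsal stage comparison used for the choice, so nothing is read from this count. The comparisons share libraries and are not independent of each other.

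Mme and Enpep, which encode peptidases of angiotensin peptides, were higher in ventral than in dorsal tissue at E10.5. Of 23 genes outside the members that make, trim or bind angiotensin peptides, 14 were tested. Mas1 reached 0.5 RPM in E9 AoV alone and is left out of the counts, and of the other 13 genes 1 rose and 0 fell between the ventral stages (median log2 difference -0.05, of all genes -0.002), with 6 at an unadjusted p below 0.05 in limma. Of all genes 6.04% rose and 4.99% fell, so the count of 1 in 13 is near the share of all genes. Mme, neprilysin, which degrades angiotensin and other peptides, rose by 2.54 (SE 0.15, limma adjusted p = 5.38e-09) from 12.9 ± 2.49 to 74.4 ± 2.06 RPM. Mas1, the receptor of a shorter angiotensin peptide, had ventral levels of 0.541 ± 0.0703 RPM at E9.5 and 0.0905 ± 0.0567 RPM at E10.5 (SD, n = 3 for each of these levels), given without a test because it entered the fit only through E9 AoV.

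Between positions at E10.5, 2 of the 13 genes were called and both were the higher in E10 AoV (median difference from E10 AoD 0.17, all genes 0.02). Of all genes 5.81% were called higher there and 4.29% lower. Mme was 1.72 higher (SE 0.15, limma adjusted p = 2.53e-07), with 72.0 to 75.7 RPM against 20.3 to 24.9 RPM. Enpep, the aminopeptidase that turns angiotensin II into angiotensin III, was 1.90 higher (SE 0.42, adjusted p = 0.00216), with 2.49 to 3.86 RPM against 0.545 to 1.48 RPM. The groups did not overlap in either gene. For the interaction of stage and position limma called 0 of the 13 at the 2-fold mark, with 9 at an unadjusted p below 0.05, all 9 of which also had an adjusted p below 0.05. For the interaction 11% of all genes were called.

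Against the urogenital ridges, Mme was higher in E10 AoV by 1.23 (SE 0.15, limma adjusted p = 1.33e-05), while Enpep was lower by 2.01 (SE 0.42, adjusted p = 0.00185). Enpep had its highest level in E10 UGR (13.7 ± 1.05 RPM, SD, n = 3). E10 AoD was lower than E10 UGR in Enpep (-3.92, SE 0.42, adjusted p = 2.37e-06) and in Anpep, alanyl aminopeptidase (-1.01, SE 0.10, adjusted p = 1.90e-06). The Anpep difference is at the 2-fold mark and fell below it with 1 RPM added (-0.95), under quantile normalization (-0.94), and without E10 AoD replicate 1 (-0.996), E10 AoD replicate 3 (-0.91) or E10 UGR replicate 2 (-0.96). At E9.5 Enpep was 2.91 higher in ventral tissue (SE 0.42, adjusted p = 4.13e-05), the call made for 1 of the 13 genes (3 without E9 AoD replicate 2, and 2 without E9 AoV replicate 1 or 3). Of all genes 8.32% were called higher there, so 1 of 13 is near the share of all genes. The mesonephros and nephric duct markers moved with Enpep at E10.5, with 9 of 10 called below E10 UGR in each aortic domain and 7 of 10 called above their E10 AoD level in E10 AoV. Of all genes 3.73% (E10 AoV) and 6.56% (E10 AoD) were called below E10 UGR, and 5.81% above E10 AoD in E10 AoV. At E9.5 the duct markers did not, with 1 of 10 called higher and 4 lower in E9 AoV than in E9 AoD. Of all genes 3.47% were called lower in E9 AoV. The hepatic endoderm markers given beside Agt were higher in E9 AoV, as Enpep was. The part of both marker lists in the level of Enpep was not tested. In dorsal tissue between stages, as a description, 2 of the 13 exceeded the call limits as higher (Mme and Mtus1, whose product binds the type 2 receptor) and 0 as lower. Of all genes 8.6% did so as higher and 4% as lower.

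**Figure D5:**
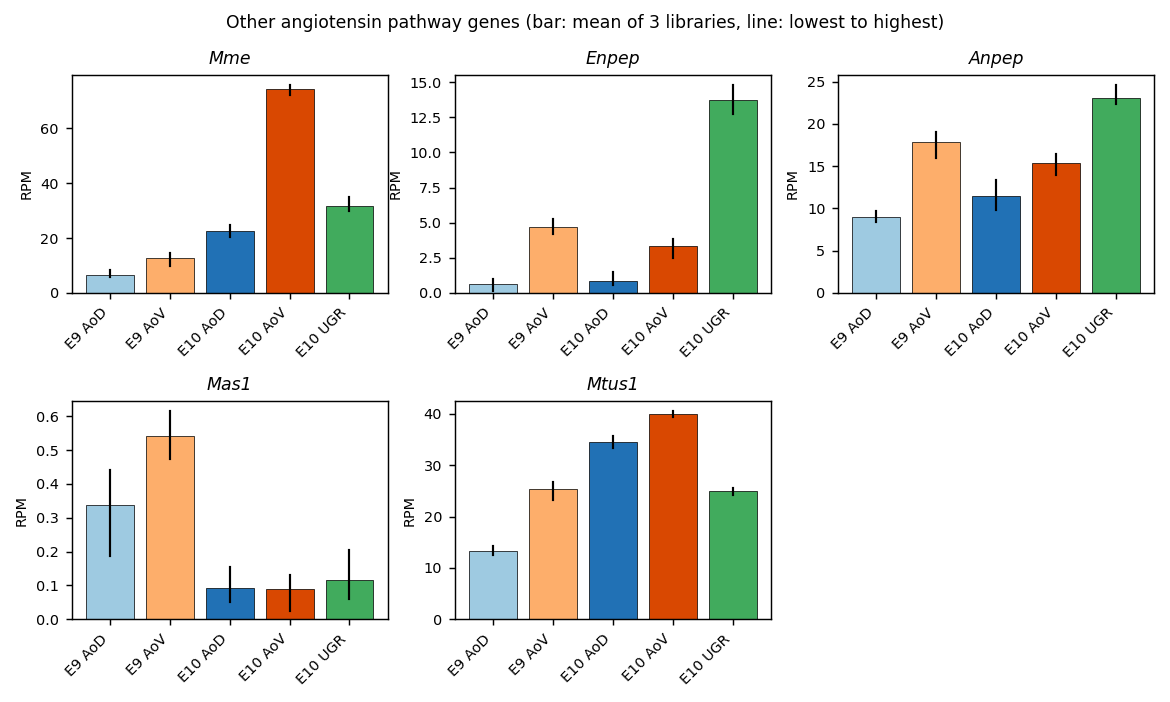
Mean RPM (bars, linear axes from 0) of 5 other genes of the angiotensin pathway with the lowest and highest of the 3 libraries (lines), by group. Mme and Mtus1 peak in E10 AoV, Enpep and Anpep in E10 UGR, and the means of Mas1 are higher in both E9.5 groups than in the E10.5 groups.

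Among 28 genes of receptor signaling, all tested, 5 rose and 0 fell between the ventral stages (median 0.26, all genes -0.002). Of all tested genes 6.04% rose and 4.99% fell by the same rule. Rgs4 and Rgs5, which speed the shut-off of G proteins, were higher by 2.96 (SE 0.15, limma adjusted p = 2.24e-09) and 2.63 (SE 0.23, adjusted p = 3.84e-07), and the protein kinase C gene Prkcb by 1.96 (SE 0.16, adjusted p = 1.87e-07). Rgs5, Prkcb and Plcb2 were above, and Rgs4 below, their E10 AoD level in E10 AoV (Rgs4 -1.30, SE 0.15, adjusted p = 8.31e-06). Rgs5 reached 261 ± 8.39 RPM in E10 AoV against 32.5 ± 2.65 RPM in E10 AoD (SD, n = 3 each), and it is also 1 of the 10 pericyte markers above. Prkcb was 2.03 higher (SE 0.16, adjusted p = 1.32e-07) and Plcb2, a phospholipase C, 2.01 higher (SE 0.33, adjusted p = 1.91e-04).

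Of 18 genes of aldosterone synthesis and response 14 were tested, of which Scnn1g reached 0.5 RPM in E10 UGR alone and is not counted. Between the ventral stages 5 of the other 13 rose and 2 fell (median 0.58, all genes -0.002), where 6.04% of all genes rose and 4.99% fell. Nr5a1, the transcription factor that sets up the adrenal and gonadal primordium, rose by 6.60 (SE 0.28, limma adjusted p = 3.89e-10) from 0.581 ± 0.0820 to 65.8 ± 3.42 RPM (SD, n = 3 each). Mc2r, the corticotropin receptor, rose by 3.34 (SE 0.27, adjusted p = 1.85e-07) and Hsd3b1, a steroid dehydrogenase, by 2.23 (SE 0.15, adjusted p = 2.91e-08). Hsd11b2 (-1.21, SE 0.09, adjusted p = 6.77e-08) and the sodium channel subunit Scnn1a (-1.18, SE 0.15, adjusted p = 1.54e-05) fell. The markers of coelomic and adrenogonadal tissue, 4 of which are in this list, moved with it, with a sum of 199 to 214 RPM in E9 AoV and of 757 to 814 RPM at E10.5, and 7 of the 9 tested rose. The part of these markers in this result was not tested. The last enzyme of aldosterone synthesis, Cyp11b2, was listed at no more than 0.0155 RPM in any library, and the mineralocorticoid receptor gene Nr3c2 stood at 0.349 to 0.646 RPM in the group means.

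The kallikrein and kinin genes, the peptide system that Ace also degrades, had 6 of 11 members tested. F12, a coagulation factor gene, and Kng1, kininogen, reached 0.5 RPM in E9 AoV alone, so their levels are given without a test and they are left out of the counts. F12 stood at 0.618 to 1.19 RPM in E9 AoV and at no more than 0.0806 RPM in any other library. Kng1 stood at 0.591 to 0.774 RPM in E9 AoV and at no more than 0.131 RPM elsewhere. Of the other 4 genes, 2 fell between the ventral stages, where 4.99% of all genes fell. Cpn1, a carboxypeptidase made in liver, fell by 4.55 (SE 0.23, limma adjusted p = 2.15e-09) and Cpm, a membrane carboxypeptidase, fell by 2.07 (SE 0.14, adjusted p = 2.88e-08). At E9.5 3 of the 4 were higher in ventral than in dorsal tissue, where 8.32% of all genes were called higher. These were Cpn1 (2.14, SE 0.23, adjusted p = 3.06e-06), Cpm (1.81, SE 0.14, adjusted p = 9.60e-08) and the bradykinin receptor gene Bdkrb2 (0.479 to 0.765 against 0.147 to 0.363 RPM, adjusted p = 0.00567). The call of Bdkrb2 was lost below the 2-fold mark with 1 RPM added (0.41) and under quantile normalization (0.94). The hepatic endoderm markers given beside Agt moved with Cpn1 and Cpm in both of these comparisons. Cpn1 and Cpm were also called lower in E10 AoV and in E10 AoD than in E10 UGR. Of all genes 3.73% and 6.56% were called lower there. The summed hepatic markers were not lower there, at 14.1 to 15.7 RPM (AoV) and 16.9 to 17.5 RPM (AoD) against 13.4 to 14.2 RPM (UGR). Their part in this result was not tested.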

How the data were processed

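Total RNA of dissected AGM tissue was made into cDNA libraries and sequenced as 50-base single reads on an Illumina instrument. Per the study's methods the reads were mapped to the NCBI37/mm9 mouse genome with TopHat and Bowtie v0.12.3 and assigned to Ensembl genes, with reads of several loci divided in proportion to unique reads, which blurs close paralogs. The authors deposited 1 table of RPM values per gene and library, rounded to 3 significant digits, beside columns of their own log2 fold changes and adjusted p-values from DESeq, which were not used here. RPM are not counts, so no count model was run. Depth was inferred from the commonest low value, taken as 1 read.

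log2(RPM + 0.1) was fitted for 15 libraries in 5 groups with limma 3.58.1 (R 4.3.3, intensity trend), with genes of at least 0.5 RPM in at least 1 library and Benjamini-Hochberg adjustment over all of them. The script was tested on simulated data. All 7 members are named, and of each pathway list up to 3 called genes per direction and comparison with the largest change. From marker lists summed levels, counts and markers moving with a member are given, and by Pearson correlation the 5 genes most like Agtr2 and the 3 most like each other member. The members and lists were chosen with earlier results of these data known. Alternatives were 1 RPM added, no filter, no fold limit, quantile normalization, a replicate block and leaving out each library. The fit of Ren1 under the other alternatives without a filter, and a replicate block within each stage, were added after seeing the data. Same-numbered E9 AoD and E9 AoV libraries deviated together from their group means (r of 0.190 to 0.452 in 3 pairs). This pairing entered only the alternative fits with a replicate block, which changed no member's call. All other p-values are from fits without it. In each other pair of groups at least 1 of the 3 same-numbered pairs had an r below 0.1. For E10 AoV and E10 UGR the 3 same-numbered pairs still lay above every other-numbered pair (r of 0.0889 to 0.168 against -0.114 to -0.0217). There a replicate block took the limma adjusted p of Agtr2 from 0.0777 to 0.0142. List genes that reached 0.5 RPM in 1 group alone were left out of the counts of lists. Coordinates are from GENCODE on NCBIM37 and upstream sequences from RefSeq on GRCm38.p6, which were not converted into each other. Of the angiotensin list 1 gene is not reported here.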

Additional observations from a re-analysis of the deposited data

Results flagged for a closer look

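The stage difference differed between the ventral and the dorsal domain for 2 members by the interaction test of limma over all tested genes. For Agtr1a the ventral minus the dorsal stage difference was -1.49 on the log2 scale (SE 0.26, adjusted p = 5.46e-04), with mean levels that went from 2.01 to 4.22 RPM dorsally and from 2.45 to 1.82 RPM ventrally. For Ace it was -1.37 (SE 0.21, adjusted p = 1.71e-04), with mean levels that went from 1.07 to 6.18 RPM dorsally and from 2.16 to 4.65 RPM ventrally. The dorsal stage difference was part of the choice of these genes through Agtr2 and enters both values. Groups of 3 libraries are too small for the test of single distant samples.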

How the results depend on the processing

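With 1 RPM added before the logarithm 1 member was called in E10 AoV against E9 AoV and 1 in E10 AoV against E10 AoD, in place of 2 each, the latter count including Agtr2 without a test. Without a library each, the second of these counts ranged from 1 to 2 and that of E9 AoV against E9 AoD from 0 to 1, and the latter, 0 as reported, was 1 with no fold limit (Ace) and 1 with no filter (Ren1). With no filter 2 in place of 1 were called in E10 AoV against E10 UGR. With no filter Ren1 was also called in E10 AoV against E10 AoD and Agtr1b in the interaction. With 1 RPM added Ace was no longer called in the interaction (-0.96). With no fold limit Ace also passed in E10 AoV against E10 AoD and Agtr1a in E10 AoD against E10 UGR. Atp6ap2 changed sign near 0, with values of -0.0209 in E10 AoV against E10 AoD under quantile normalization, -0.0180 to 0.0215 in that comparison without a library each, and -0.0106 to 0.087 in E10 AoV against E9 AoV. Same-numbered libraries of different stages did not deviate together (r of -0.138 to 0.216 over 18 pairs), and those of the same stage did so weakly (0.0416 to 0.452 over 12 pairs). With a replicate block the count of called members was 2 in E10 AoV against E9 AoV and changed in none of the 7 comparisons, and with the block within each stage, added after seeing the data, it changed in none of the 4 comparisons within a stage and not in the interaction. Of the values of called pathway genes under the alternatives, 1086 kept their call, 47 lost it and 0 changed sign. The cause of these changes was not tested. At these depths 3 reads are 0.0618 to 0.0888 RPM, so most values of Agt, Agtr1b and Ren1 lie near or below that floor.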
